A study of Homo sapiens with 36 samples.

Results

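The comparison described here was between HT29 cells given the medium dose of a water extract of *Aconitum carmichaeli* Debeaux (ACD), 100 µg/mL for 24 h, and HT29 cells given vehicle for the same time in the same batch (batch B). The members are the libraries that carry these labels, 3 per group, that is, 6 of the 36 libraries of the series, with all genes taken. HT29 is an established colorectal adenocarcinoma line, ACD is a medicinal plant of the monkshood genus known for diterpene alkaloids, and the other cell line of the series is the astrocytoma line SW1783. The study asked whether the extract acts more on the brain or on the intestine, and gave each line the extract at 500 (high), 100 (medium) and 20 µg/mL (low), with wortmannin as a further treatment. The sample labels name the treatment a water extract of Aconiti Lateralis Radix Preparata. The vehicle was DMSO, 0.1% in the sample labels and 2% in the PBS that carried the extract. The sources used here do not say that replicates were separate cultures, so the p-values measure the spread between these samples, which may be technical.

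The aryl hydrocarbon receptor (AhR) is a ligand-activated transcription factor that senses planar aromatic compounds from plants, microbes and combustion. With its partner ARNT it binds DNA sites with the core GCGTG and switches on enzymes that oxidise and conjugate foreign compounds, above all cytochrome P450 enzymes of the CYP1 family. Intestinal epithelial cells also answer microbial and inflammatory signals through NF-kB, which drives chemokines that attract neutrophils and other leukocytes.

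The medium dose changed few genes in HT29, and the largest change was that of an AhR target. Of 17177 genes tested, 135 (0.786%) were differentially expressed genes (DEGs), with a Benjamini-Hochberg adjusted p-value under 0.05 in the Wald test of DESeq2 and a change of more than 1.5-fold. Of the tested genes 70 (0.408%) rose and 65 (0.378%) fell. The rises included 5 of 12 tested genes of the AhR pathway, 8 of 26 chemokines and NF-kB targets and 4 of 21 targets of the oxidative stress factor NRF2, while 55.4% of the falls were long non-coding RNA (lncRNA) genes or transcripts still to be experimentally established (TEC). In all 135 DEGs the 3 medium-dose libraries lay on one side of the 3 vehicle libraries, which was the case for 27.2% of all genes tested.

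**Figure D1:**
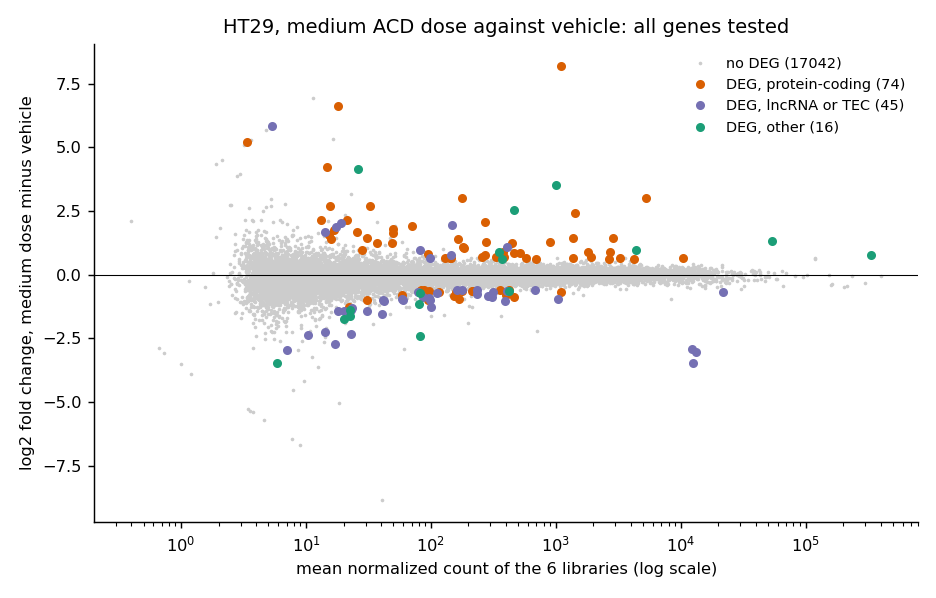
Each point is a gene tested, with the mean normalized count of the 6 libraries on a log axis and the log2 fold change of the medium dose against vehicle on the other axis. Coloured points are the 135 DEGs by gene class, and the highest of them is CYP1A1 at 8.21.

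Depth and replicates set limits on these counts. Total counts were between 18260737 and 31811972 in the 6 libraries. Vehicle replicate 1 stood apart, since the chi-square per degree of freedom between library pairs, which is near 1 for sampling noise, was 15.1 and 17.3 against the other vehicles, 4.04 between those, and 3.64 to 4.44 within the medium dose. Between a vehicle and a medium-dose library that value was 18.6 to 40.3, so the smallest of these was close to the 17.3 within vehicle. Without vehicle replicate 1 there were 106 DEGs, 67 higher and 39 lower. The rises varied less than the falls when a library was left out, with 56 to 67 rises and 31 to 58 falls, and the falls dropped to 31 without replicate 1 or replicate 3 of the medium dose and to 32 without vehicle replicate 2. The fit borrows its spread from the low and high doses too, and without replicate 2 of the high dose, a library unlike its replicates, 92 genes rose and 93 fell. The vehicle libraries of batch A gave 62 rises and 64 falls but are no separate check, since each differed from the batch B vehicle of its number by a chi-square per degree of freedom of only 1.46 to 1.54.

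Markers of colonic epithelium were present in both groups. All 12 markers in that list (among them EPCAM, CDH17, KRT20, VIL1 and CDX2) were tested and none was a DEG, with a summed level of 11853 to 13494 CPM (each library's counts brought to one common total) in vehicle and 11667 to 12787 CPM at the medium dose. Of 8 mesenchymal and astrocytic markers, COL1A2, SPARC and S100B had no counts in the 6 libraries and the summed level was at most 2.48 CPM. Of 8 blood and endothelial markers 3 were tested and none was a DEG, and the sum of 1706 to 1827 CPM in vehicle and 1430 to 1625 CPM at the medium dose was almost all LYZ, a lysozyme that secretory cells of the intestine also make (log2 fold change -0.20, DESeq2 adjusted p = 0.676).

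No gene of the AhR pathway list fell. Of its 12 genes tested, 5 were DEGs upward, against 0.408% of all genes tested, and the median log2 fold change was 0.34, beside -0.006 over all genes tested. CYP1A1 (ENSG00000140465, chromosome 15, 74719542 to 74725536), a monooxygenase that oxidises polycyclic aromatic compounds, had normalized counts of 2.6, 9.5 and 8.5 with vehicle, against 2062, 2192 and 2294 with the medium dose. The vehicle libraries were close to the detection limit and the groups did not overlap. Its log2 fold change was 8.21 ± 0.39 (SE, DESeq2 adjusted p = 5.45e-94), and the raw counts behind the vehicle values were 2, 13 and 8, so that the size of the fold rests on few reads.

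CYP1B1 (ENSG00000138061, chromosome 2, 38066973 to 38109902), a related monooxygenase, had 1058, 1147 and 1253 normalized counts in vehicle and 9039.8, 9714 and 9338 at the medium dose. The medium-dose libraries agreed within a narrow range far above every vehicle library, a log2 change of 3.02 ± 0.15 (DESeq2 adjusted p = 1.26e-82). The antisense gene CYP1B1-AS1, which lies across CYP1B1, had, vehicle against medium dose as in all such pairs of values, 51.6, 60.7 and 66 against 255, 216 and 229.9 (log2 fold change 1.96 ± 0.21), and because the strand setting of the counting was not stated, reads of the pair cannot be told apart. TIPARP (ENSG00000163659, chromosome 3, 156673235 to 156706770), an ADP-ribosyltransferase that AhR induces and that restrains AhR in return, had 1475, 1548 and 1663 in vehicle and 4121, 4264 and 4299 at the medium dose. The groups did not overlap, and the log2 fold change was 1.44 ± 0.09 (DESeq2 adjusted p = 5.83e-53).

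ALDH3A1 (ENSG00000108602, chromosome 17, 19737984 to 19748943), an aldehyde dehydrogenase inducible through AhR, had 551, 519.5 and 501 normalized counts in vehicle and 1254, 1277 and 1302 at the medium dose, a log2 change of 1.29 ± 0.07 (DESeq2 adjusted p = 1.37e-65). UGT1A6, which attaches glucuronic acid to phenols, had 1042, 1089 and 1050.1 against 1785, 1588 and 1671, a log2 change of 0.66 ± 0.13 (DESeq2 adjusted p = 4.11e-05). The vehicle and medium-dose libraries of both genes were separate. UGT1A6 overlaps 11 other genes on its strand, mostly of the same locus with shared exons, so its count is uncertain.

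Other tested genes of the list did not pass. The receptor itself, AHR, had a log2 fold change of -0.07 ± 0.08, and its partner ARNT one of 0.08 ± 0.11. AHRR, the repressor of the receptor, had 0.35 ± 0.22. The enzymes CYP2S1 and NQO1 had 0.22 and 0.34, and the efflux pump ABCG2 had 0.19. CYP1A2 had raw counts of 0 in each vehicle library and of 3, 2 and 3 at the medium dose, too few to be tested.

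ALDH1A3 (ENSG00000184254, chromosome 15, 100877714 to 100916626), which makes retinoic acid from retinaldehyde and was not in the AhR list, was among the largest rises. Its normalized counts were 425, 457 and 464 in vehicle and 2441, 2384 and 2434 at the medium dose. All medium-dose libraries were above all vehicle libraries, with a log2 change of 2.43 ± 0.10 (DESeq2 adjusted p = 4.82e-116). Its antisense gene ALDH1A3-AS1 had a log2 fold change of 1.09 ± 0.11, with the same limit on strand as above. None of 17 tested genes of drug metabolism and efflux outside the CYP1 family was a DEG (median log2 fold change 0.18, 13 above 0).

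The 250 bases before the start of CYP1A1 are shown because it had the largest change. They are RefSeq sequence on GRCh38.p14, chr15:74725529-74725778, minus strand, read 5′ to 3′, with the AhR core GCGTG in capitals. The core begins 57 bases before the start.
CYP1A1: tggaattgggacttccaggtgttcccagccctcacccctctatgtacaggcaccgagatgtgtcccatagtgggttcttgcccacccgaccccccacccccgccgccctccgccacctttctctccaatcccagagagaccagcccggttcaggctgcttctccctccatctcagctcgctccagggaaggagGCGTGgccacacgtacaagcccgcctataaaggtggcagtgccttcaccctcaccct
Searched on both strands of such windows, GCGTG occurred in 31.9% of 27305 RefSeq promoters, and the longer form TNGCGTG in 4.53%. TIPARP and ALDH1A3 each held the core 2 times and UGT1A6 and AHRR 1 time, for these last in the longer form. The windows of CYP1A1, TIPARP and ALDH1A3 did not hold the longer form. Whether AhR binds at any of these cores was not tested. Of 40 protein-coding rises with a promoter entry, 18 (45%) held GCGTG and 1 (2.5%) held TNGCGTG, and of 16 protein-coding falls 8 (50%) and 2 (12.5%). CYP1B1 and ALDH3A1 had no entry.

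**Figure D2:**
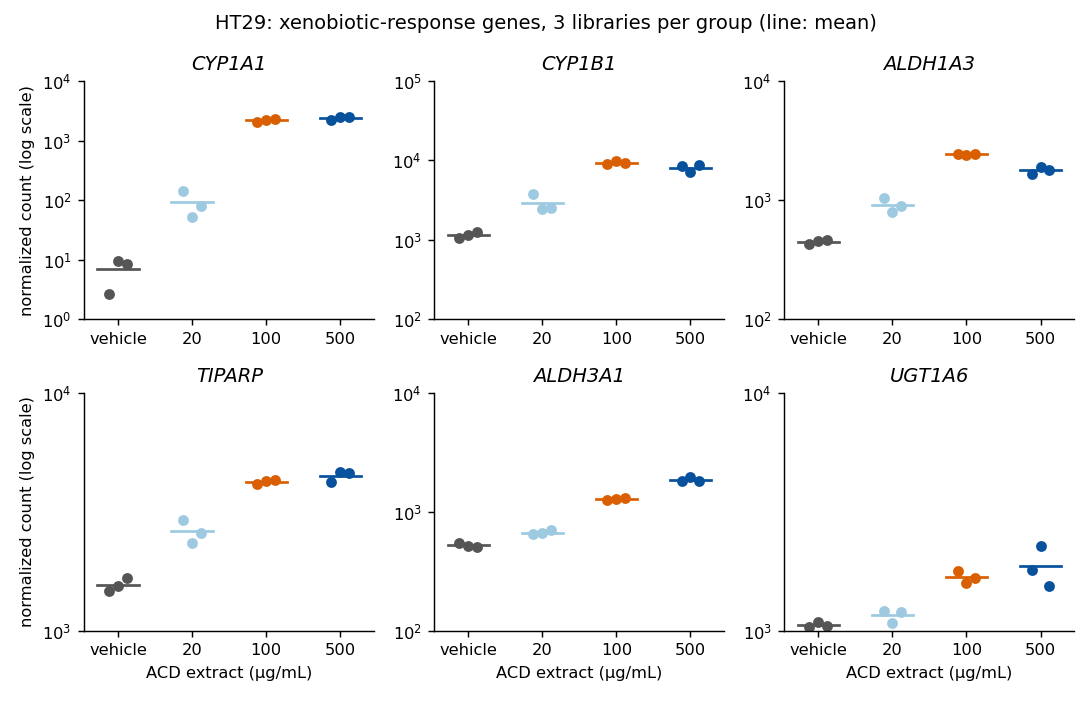
Points are the normalized counts (log axis) of the 3 libraries of a group and lines are group means, for vehicle and for 20, 100 and 500 µg/mL of extract, spaced as categories. At 100 µg/mL the libraries of each of the 6 genes lay above those of vehicle, and CYP1A1 went from at most 9.5 to at least 2062 normalized counts.

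The medium dose was also compared directly with its neighbouring doses, in the same fit of all 12 libraries. The medium dose differed from the low dose in 23 genes of 14458 tested (0.159%), 21 (0.145%) higher and 2 (0.0138%) lower at the medium dose, and from the high dose in 103 genes of 15002 (0.687%), 46 (0.307%) higher and 57 (0.38%) lower. With edgeR on the 6 libraries of the medium and high doses alone, an alternative chosen after seeing the data, 11 genes differed between them. CYP1A1 had 141, 52.9 and 80 normalized counts at the low dose and 2232, 2469 and 2451 at the high dose. The step from low to medium was 4.57 ± 0.26 on the log2 scale (DESeq2 adjusted p = 1.32e-66), while medium minus high was -0.13 ± 0.24 (DESeq2 adjusted p = 0.868), with no difference beyond the spread. CYP1B1 rose by 1.68 ± 0.15 from the low to the medium dose (DESeq2 adjusted p = 5.19e-25), and TIPARP by 0.69 ± 0.09 (DESeq2 adjusted p = 1.15e-11). Medium minus high was 0.21 ± 0.15 for CYP1B1 and -0.08 ± 0.09 for TIPARP, neither past the threshold.

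ALDH3A1 and ALDH1A3 departed from that order in opposite ways. ALDH3A1 had 644, 659 and 702 normalized counts at the low dose and 1794, 1966 and 1799 at the high dose, so that the medium dose lay between them, with medium minus high at -0.53 ± 0.07 (DESeq2 adjusted p = 1.51e-12). That difference passed the p-value threshold but not the 1.5-fold threshold. ALDH1A3 had 1672, 1904 and 1784 at the high dose, below every medium-dose library, with medium minus high at 0.44 ± 0.10 (DESeq2 adjusted p = 0.00112), also under 1.5-fold.

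Chemokines and NF-kB targets were the list with the most DEGs upward by number. Of 26 tested, 8 rose, against 0.408% of all genes tested, and none fell, with a median log2 fold change of 0.39 and 23 above 0. CXCL1 (ENSG00000163739, chromosome 4, 73869393 to 73871308), which attracts neutrophils, had 47.7, 35.1 and 36.2 normalized counts in vehicle and 324, 289 and 327 at the medium dose. The groups were far apart, with a log2 change of 3.01 ± 0.21 (DESeq2 adjusted p = 2.09e-41). CXCL8, the chief neutrophil chemokine in humans, had 119, 101 and 90.4 against 411, 469 and 432, a log2 change of 2.08 ± 0.26 (DESeq2 adjusted p = 1.47e-12). CCL20 (ENSG00000115009, chromosome 2, 227805739 to 227817564), which attracts cells with the receptor CCR6, had 5.3, 8.8 and 11.7 in vehicle and 53.5, 65.6 and 49.8 at the medium dose.

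For CCL20 this was a log2 change of 2.69 ± 0.39 (DESeq2 adjusted p = 4.94e-09), and the groups did not overlap. CXCL2 and CXCL3, close relatives of CXCL1 that may share reads with it, had log2 fold changes of 1.76 ± 0.40 and 1.25 ± 0.30. CXCL5, another neutrophil chemokine, had raw counts of 0 in every vehicle library and of 4, 10 and 8 at the medium dose, which made it at least 7.09-fold higher, with the vehicle group set to a floor of 3 counts in all. Of 16 alternatives CXCL5 had a result in only 7, and its call held in 4 of them. The call was lost without medium-dose replicate 2, vehicle replicate 1 or vehicle replicate 2. PI3, the elastase inhibitor elafin, had 109.9, 80.5 and 84.1 in vehicle and 234, 258 and 232 at the medium dose, a log2 change of 1.42 ± 0.16 (DESeq2 adjusted p = 1.23e-16). BIRC3, an inhibitor of apoptosis and NF-kB target, had 120.5, 122 and 119 against 244, 263 and 246, with 1.06 ± 0.14 (DESeq2 adjusted p = 9.76e-11).

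In that list the NF-kB feedback genes NFKBIA, with a log2 fold change of 0.25 ± 0.09, and TNFAIP3, with 0.19 ± 0.30, were not DEGs. ICAM1, an adhesion molecule, and LCN2, which withholds iron from bacteria, had 0.53 and 0.45 with DESeq2 adjusted p-values of 0.0199 and 3.35e-05, under the fold threshold. Outside the list, and chosen after their values were seen, CXCL6, a further neutrophil chemokine, rose by 2.15 ± 0.43 and PTGS2, the inducible cyclooxygenase, by 0.85 ± 0.10 on the log2 scale. The kinase gene PIM1 had 242, 269 and 287 normalized counts in vehicle and 622, 613 and 653 at the medium dose, a log2 change of 1.24 ± 0.11 (DESeq2 adjusted p = 2.25e-25).

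In the complement list 1 of 11 genes tested rose and none fell (median 0.15), against 0.408% and 0.378% of all genes tested. This was C3, the central complement protein, with raw counts of 1, 0 and 0 in vehicle and of 25, 40 and 47 at the medium dose (DESeq2 adjusted p = 1.54e-05). MIR3142HG, the host gene of miR-146a and likewise chosen after its values were seen, had no counts in vehicle and 9, 13 and 12 at the medium dose, at least 11-fold higher on the floor used for CXCL5. None of 31 interferon-stimulated genes tested was a DEG, with a median log2 fold change of 0.19.

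Stretches of 100 bases directly before the RefSeq starts of 3 of these chemokine genes are shown because they share a kappa-B site, the binding motif of NF-kB, at nearly the same distance (GRCh38.p14, 5′ to 3′ on the strand of the gene, site in capitals). They are chr4:73869293-73869392 on the plus strand for CXCL1, chr4:74099196-74099295 on the minus strand for CXCL2, and chr2:227813742-227813841 on the plus strand for CCL20.
CXCL1: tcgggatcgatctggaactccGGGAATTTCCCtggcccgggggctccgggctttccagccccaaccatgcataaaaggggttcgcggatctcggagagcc
CXCL2: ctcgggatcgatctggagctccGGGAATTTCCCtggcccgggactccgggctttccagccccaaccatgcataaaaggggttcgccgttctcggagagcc
CCL20: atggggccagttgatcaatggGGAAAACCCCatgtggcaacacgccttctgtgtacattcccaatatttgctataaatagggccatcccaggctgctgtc
In CXCL1 and CXCL2 the motif matched on both strands at overlapping positions, taken here as a single site. In CCL20 it matched on the strand opposite to the gene. The sites began 79, 78 and 79 bases before the start. CXCL3 and CXCL6 held a site of the same kind and BIRC3 held 2 separate sites. The windows of CXCL8 and PTGS2 held no match to the motif as searched. Sites that depart from that motif would be missed, so these windows may still hold one. The motif occurred in 5.05% of 27305 promoters of 250 bases, in 9 of 40 (22.5%) protein-coding rises with an entry and in 1 of 16 (6.25%) protein-coding falls. The rises were chosen by their change and several chemokines are related by descent, so these shares are a description.

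**Figure D3:**
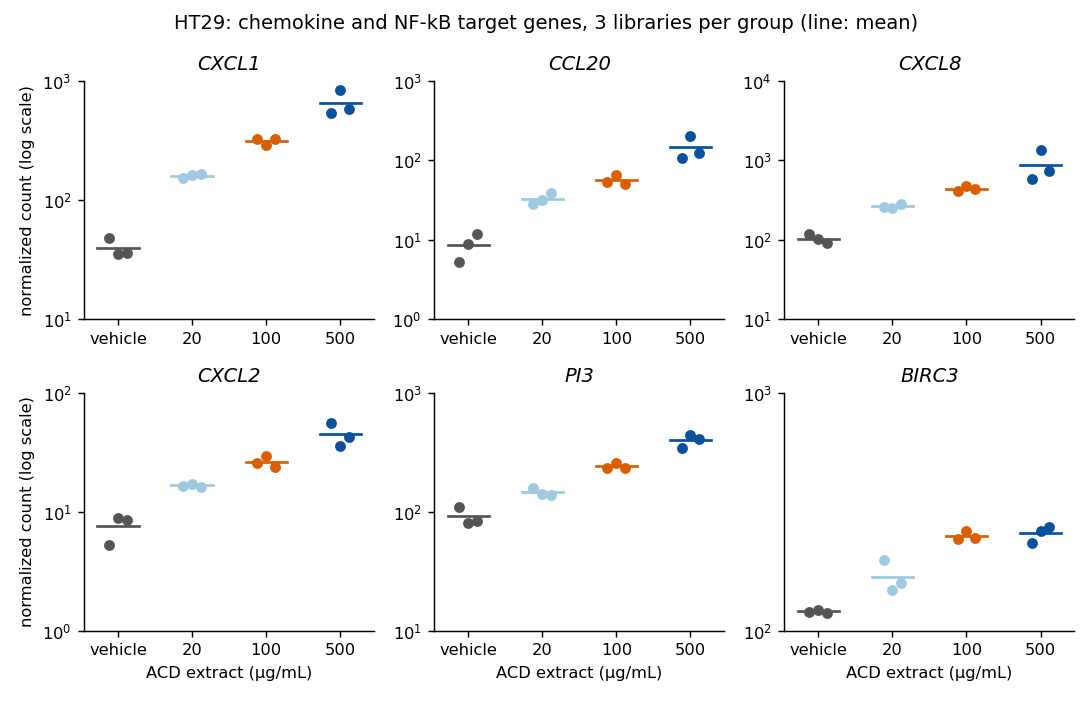
Points are the normalized counts (log axis) of the 3 libraries of a group and lines are group means, for vehicle and for 20, 100 and 500 µg/mL of extract, spaced as categories. The 3 libraries at 100 µg/mL lay above those of vehicle for each of the 6 genes, and CXCL1 rose further from 324, 289 and 327 there to 538, 834 and 577 at 500 µg/mL.

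Several chemokines were lower at the medium than at the high dose. CXCL1 had 154, 164 and 164 normalized counts at the low dose and 538, 834 and 577 at the high dose. The medium dose exceeded the low dose by 0.96 ± 0.18 (DESeq2 adjusted p = 4.30e-05), and medium minus high was -1.05 ± 0.17 (DESeq2 adjusted p = 2.84e-07). CCL20 and CXCL8 were also below the high dose, with medium minus high at -1.35 ± 0.29 and -1.01 ± 0.25 on the log2 scale (DESeq2 adjusted p = 4.17e-04 and 0.00615). High-dose replicate 2 had the highest value of both genes, and the other high-dose libraries were still above every medium-dose library. For both, the difference from the low dose did not pass (adjusted p = 0.764 and 0.391). BIRC3 did not differ from the high dose beyond the spread (-0.04 ± 0.13).

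Some targets of NRF2, the transcription factor of the antioxidant response, rose. Of 21 tested, 4 were DEGs upward, against 0.408% of all genes tested, and none downward, with a median log2 fold change of 0.35 and 19 above 0. TXNRD1, a thioredoxin reductase, had 7784, 8011 and 8650.1 normalized counts in vehicle and 13033, 12562 and 12870.1 at the medium dose, with a log2 change of 0.65 ± 0.06 (DESeq2 adjusted p = 3.09e-27). AKR1B10, an aldo-keto reductase, had 2673, 2434 and 2502 against 3937, 3968 and 4190.2, with 0.67 ± 0.10 (DESeq2 adjusted p = 8.21e-09). In both genes every medium-dose library was above every vehicle library.

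OSGIN1, a growth inhibitor induced by oxidative stress, rose by 0.69 ± 0.12, and SLC7A11, the cystine importer, by 0.62 ± 0.11 on the log2 scale (DESeq2 adjusted p = 4.06e-06 and 2.92e-06). SLC7A11 came under the fold threshold without medium-dose replicate 2 (0.58) or vehicle replicate 1 (0.57). SRXN1 and GCLM, which respectively repair peroxiredoxins and help to make glutathione, had log2 fold changes of 0.33 and 0.40 with DESeq2 adjusted p-values of 4.11e-05 and 0.00227, under the fold threshold. HMOX1, haem oxygenase, had 0.25 ± 0.13 (DESeq2 adjusted p = 0.479). At the low dose the log2 fold changes against the same vehicles were -0.02 for SLC7A11 and -0.05 for AKR1B10, and at the high dose 1.21 and 1.13. Medium minus high was -0.59 ± 0.11 for SLC7A11 (DESeq2 adjusted p = 5.30e-06).

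Growth-factor and surface genes were among the other rises. EREG, a ligand of the EGF receptor, had 1824, 1866 and 2065 normalized counts in vehicle and 3559, 3599 and 3465 at the medium dose, with a log2 change of 0.88 ± 0.10 (DESeq2 adjusted p = 5.71e-15), and DUSP5, a phosphatase that inactivates ERK, rose by 0.66 ± 0.14. They were the 2 DEGs among 25 tested immediate early and ERK feedback genes (median 0.14), against 0.786% of all genes tested. ADGRF1, an adhesion G protein-coupled receptor, had 696, 727 and 790.5 against 2026, 1979 and 1961, with 1.43 ± 0.09 (DESeq2 adjusted p = 1.44e-56). In neither EREG nor ADGRF1 did the groups overlap.

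SLC22A3, a transporter of organic cations, had 149.6, 160.2 and 169 normalized counts in vehicle and 405, 385 and 392 at the medium dose, with 1.3 ± 0.12 (DESeq2 adjusted p = 6.34e-24). LRRN4, a leucine-rich repeat membrane protein, had 29.1, 30.7 and 29.8 against 126, 100.3 and 111, with 1.91 ± 0.32 (DESeq2 adjusted p = 1.01e-06). PIGR, chosen after its values were seen, carries IgA across the epithelium. It had 27.8, 21.2 and 24.5 in vehicle, 60.6, 66.6 and 73.5 at the low dose, 70.2, 65.6 and 87.6 at the medium dose and 34.9, 29.1 and 35.1 at the high dose. It was higher at the medium than at the high dose by 1.15 ± 0.24 (DESeq2 adjusted p = 3.40e-04), with no overlap of those groups.

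Only 21 of the 65 falls (32.3%) were protein-coding, against 53 of the 70 rises (75.7%). NAIP (ENSG00000249437, chromosome 5, 70968166 to 71025339), an intracellular sensor of bacterial proteins, had 122, 132 and 126 normalized counts in vehicle and 59, 76.6 and 53.7 at the medium dose, a log2 change of -1.0 ± 0.22 (DESeq2 adjusted p = 8.61e-04). The groups did not overlap, but NAIP has near-identical copies in its locus and its count is uncertain. CD200, a surface ligand that restrains myeloid cells, had 197, 246 and 218 in vehicle and 117, 115 and 111 at the medium dose, with -0.96 ± 0.15 (DESeq2 adjusted p = 3.45e-08). TPPP3, a tubulin-binding protein, had 669, 557 and 581 against 321, 318 and 348, with -0.87 ± 0.11 (DESeq2 adjusted p = 1.81e-11). For CD200 and TPPP3 the medium dose was below the low dose as well, with medium minus low at -0.65 ± 0.15 and -0.57 ± 0.11 on the log2 scale (DESeq2 adjusted p = 0.00487 and 3.26e-04), the latter under 1.5-fold.

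Genes of intestinal differentiation moved in both directions. Of 26 tested, 2 rose and 2 fell, against 0.408% and 0.378% of all genes tested, with a median log2 fold change of 0.01. CEACAM7, an adhesion molecule of mature colonocytes, rose with 15.9, 10.2 and 10.6 normalized counts in vehicle and 39, 37.9 and 38.8 at the medium dose, and ALPG, an alkaline phosphatase with near-identical relatives, rose from 11.9, 7.3 and 4.3 to 21.2, 17.4 and 29.9. SLC14A1, a urea transporter, fell with 212, 182 and 199 in vehicle and 116, 112 and 100.5 at the medium dose, a log2 change of -0.84 ± 0.14 (DESeq2 adjusted p = 1.88e-06). TFF3, the trefoil peptide of goblet cells, had 259.5, 206 and 188 against 127, 148 and 140.3, with -0.64 ± 0.19 (DESeq2 adjusted p = 0.0343), a call that was lost with edgeR (adjusted p = 0.11). The same held for ATOH1, the transcription factor of secretory cells, at -0.72 ± 0.21 (DESeq2 adjusted p = 0.0402, edgeR adjusted p = 0.0847), while the goblet cell mucin gene MUC2 had 0.09 and was not a DEG. In RNA of whole cultures, fewer cells of a type and less RNA per cell cannot be told apart. The calls of TFF3 and ATOH1 were lost in 8 and 9 of 16 alternatives and that of ALPG in 8 of 13, each of them without any 1 of the medium-dose libraries or vehicle replicate 2.

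Among the other coding falls, TXNIP, an inhibitor of thioredoxin that is controlled by glucose, had 1334, 1311 and 1431 normalized counts in vehicle and 873, 829 and 883 at the medium dose. The groups did not overlap, and the log2 fold change was -0.66 ± 0.15 (DESeq2 adjusted p = 0.0024, edgeR adjusted p = 0.0541). It was the single DEG among 24 tested hypoxia and glucose-responsive genes, against 0.786% of all genes tested. DKK1, a secreted WNT inhibitor, had 539, 490.2 and 486 against 288, 303 and 289.6, with -0.78 ± 0.19 (DESeq2 adjusted p = 0.00327, edgeR adjusted p = 0.0554). DKK1 was the single DEG among 12 tested WNT targets, against the same 0.786%. The call of DKK1 was lost without medium-dose replicate 1 (-0.77), medium-dose replicate 3 (-0.77) or vehicle replicate 1 (-0.73). NOX1, the NADPH oxidase of colon epithelium, had 422, 451 and 409.6 against 265, 284 and 304, with -0.59 ± 0.10 (DESeq2 adjusted p = 1.52e-06), and lay between the low and the high dose, above the high dose by 0.67 ± 0.11 (DESeq2 adjusted p = 7.61e-07).

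Smaller falls were those of METTL7A, a methyltransferase-like protein (-0.79 ± 0.20), CHST3, which sulfates chondroitin (-0.67 ± 0.15), FILIP1L, a filamin-interacting protein (-0.67 ± 0.13), KCNJ14, a potassium channel (-0.65 ± 0.14), and DEPTOR, an inhibitor of mTOR (-0.66 ± 0.17), all on the log2 scale with DESeq2 adjusted p-values of at most 0.0114. The calls of METTL7A, CHST3 and DEPTOR were lost without vehicle replicate 2 (-0.75, -0.63 and -0.59) and without medium-dose replicate 3 (-0.75, -0.63 and -0.66), and those of METTL7A and DEPTOR without medium-dose replicate 1 (-0.77 and -0.69). DEPTOR also lost its call without medium-dose replicate 2 (-0.63) or vehicle replicate 3 (-0.62). Against the batch A vehicles the calls of FILIP1L (-0.55) and CHST3 (-0.57) were lost, and with the replicate number as a block that of METTL7A (-0.79).

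Long non-coding and TEC genes made up 36 of the 65 falls (55.4%), and 1.31% of those tested fell against 0.16% of protein-coding genes. Of these 36, 17 overlap another gene on the same strand, so that their reads may belong to that gene. MALAT1, a nuclear RNA retained in speckles, had 29094, 26024 and 25189.7 normalized counts in vehicle and 16261, 19379 and 15210.5 at the medium dose, with -0.66 ± 0.19 (DESeq2 adjusted p = 0.0305, edgeR adjusted p = 0.141). Every vehicle library was above every medium-dose library. LINC00261, an endoderm RNA, had a log2 change of -0.68 ± 0.13 (DESeq2 adjusted p = 9.00e-05).

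Among lncRNA and TEC genes with a mean of 50 or more normalized counts, the 3 largest falls lie in the ribosomal DNA array of chromosome 21. ENSG00000280800 had 20258, 26898 and 22034 normalized counts in vehicle and 1428, 2184 and 2684 at the medium dose, and ENSG00000280614 had 25981, 23615 and 22034 against 3839, 2184 and 2684. Their log2 fold changes were -3.46 ± 0.61 and -3.04 ± 0.28 (DESeq2 adjusted p = 3.42e-06 and 4.35e-24), and that of ENSG00000281181 was -2.92 ± 0.28. The 3 genes had identical values in several libraries, so they may share reads as copies of one sequence and were not taken as independent measurements. All 20 genes of the array together took 0.292% ± 0.0234 of counts in vehicle, 0.0449% ± 0.0175 at the low dose, 0.0338% ± 0.00518 at the medium dose and 0.0483% ± 0.0279 at the high dose (SD, n = 3).

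Small structural RNAs without a long poly(A) tail moved in both directions. Of 6 tested, 2 rose and 1 fell, against 0.408% and 0.378% of all genes tested. RN7SL2 and RN7SL1, near-identical genes of the signal recognition particle RNA that share reads, were higher at the medium dose without overlap. RN7SL2 had 218, 154 and 116 normalized counts in vehicle and 1459, 2287 and 1822 at the medium dose, with 3.51 ± 0.56 on the log2 scale (DESeq2 adjusted p = 1.73e-07). RN7SL1 had 179, 128 and 103 against 660.4, 958 and 740.3, with 2.53 ± 0.60 (DESeq2 adjusted p = 0.00312, edgeR adjusted p = 0.0656). The RNA 7SK, which holds back the elongation factor P-TEFb, had 154, 135 and 122 in vehicle and 30.1, 19 and 27.9 at the medium dose, with -2.43 ± 0.52 (DESeq2 adjusted p = 4.47e-04). Selection of mRNA recovers such RNAs only in part, and whether their recovery differed between groups was not tested. The call of RN7SL1 was also lost without medium-dose replicate 2 (2.36) and without vehicle replicate 2 (2.48).

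The falls were followed across doses by gene class. Over the 21 coding falls the median log2 fold change went from -0.21 (low) to -0.67 (medium) and -1.04 (high). Over the 36 lncRNA and TEC falls the medians were -0.87, -1.0 and -1.02. Over the 70 rises they were 0.55, 1.26 and 1.26. All doses share the vehicle libraries, and the genes were chosen at the medium dose, so these medians are a description with no test. Against the same vehicles the low dose had 49 DEGs (0.285% of genes tested) and the high dose 469 (3.13%), of which 1.36% of genes tested were higher and 1.77% lower. The study reported fewer DEGs in each direction for HT29 at the high dose, with the same thresholds. The reason for that difference was not tested.

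**Figure D4:**
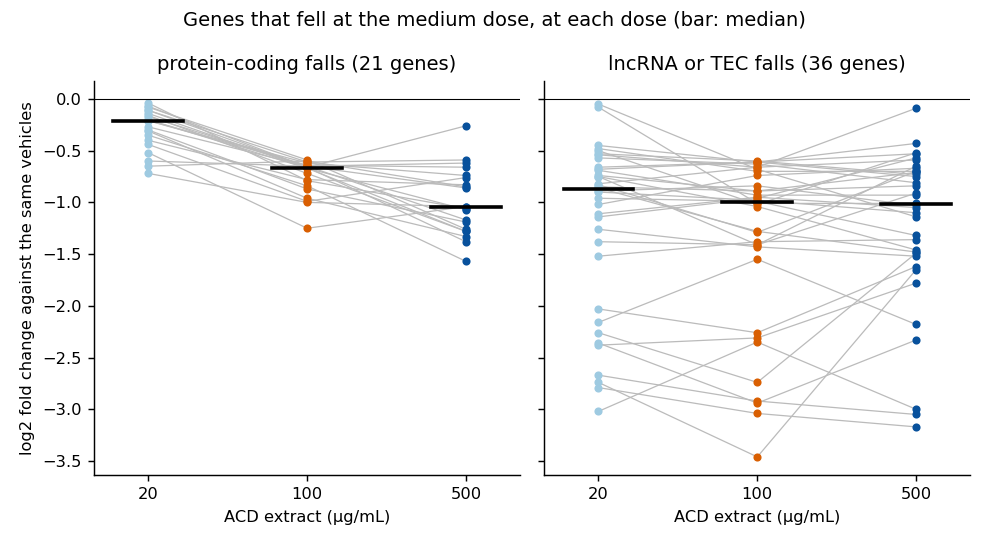
Each line joins the log2 fold changes of a gene at 20, 100 and 500 µg/mL against the same vehicle libraries, for the protein-coding and for the lncRNA or TEC genes that fell at 100 µg/mL, and bars are medians. The medians of the coding genes go from -0.21 to -1.04, while those of the lncRNA and TEC genes stay between -0.87 and -1.02.

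Both mitochondrial ribosomal RNAs rose. MT-RNR1, the small rRNA of the mitochondrial ribosome, had 33364, 29622 and 30254 normalized counts in vehicle and 80424, 81377 and 70462 at the medium dose, a log2 change of 1.32 ± 0.09 (DESeq2 adjusted p = 1.12e-44). MT-RNR2, the large one, had a log2 change of 0.77 ± 0.09 (DESeq2 adjusted p = 1.54e-13), and in neither did the groups overlap. The medium dose lay between the others, with medium minus low at 1.53 ± 0.09 and medium minus high at -3.25 ± 0.09 for MT-RNR1 (DESeq2 adjusted p = 1.06e-60 and 1.98e-279).

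Mitochondrial mRNAs did not follow the rRNAs. None of the 13 was a DEG, with a median log2 fold change of -0.40 and 11 below 0, and none of 23 nuclear genes for mitochondrial gene expression was a DEG (median 0.00). The rRNAs took 1.22%, 1.14% and 1.18% of counts in vehicle and 2.18%, 2.16% and 1.96% at the medium dose, the mRNAs 8.91%, 7.6% and 8.32% in vehicle and 7.57%, 7.29% and 6.76% at the medium dose. The groups did not overlap for either class. With 3 against 3 libraries the two-sided exact permutation test cannot go below 0.1, which was its p for both classes, and 0.117 after Benjamini-Hochberg adjustment over 7 RNA classes. The share of nuclear protein-coding genes was 88.3% ± 0.659 and 88.8% ± 0.549 (SD, n = 3, exact permutation p = 0.4), and that of the replication-dependent histones 0.00359% ± 0.000106 and 0.00285% ± 4.22e-05.

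**Figure D5:**
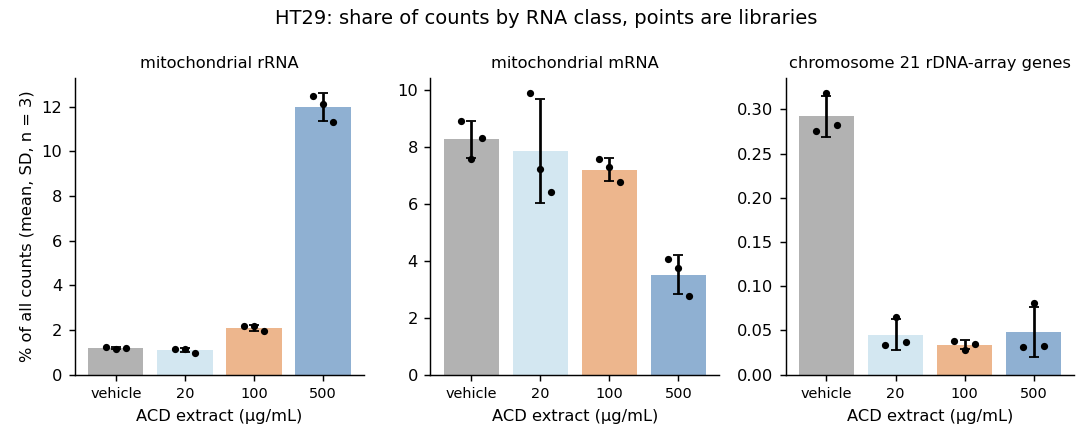
Bars are mean shares of all counts with SD (n = 3) and points are libraries, for vehicle and for 20, 100 and 500 µg/mL of extract. The rRNA share at 100 µg/mL (2.1%) lies between vehicle (1.18%) and 500 µg/mL (12%), and the share of the chromosome 21 array is low at every dose.

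Other programmes had no DEG at the medium dose under DESeq2. This held for 25 tested genes of the integrated stress and unfolded protein response (median log2 fold change 0.09), 24 of cholesterol synthesis and uptake (-0.06), 13 PPAR targets (0.04), 30 cell cycle genes (0.05), 14 p53 targets (-0.08) and 17 heat shock genes (0.04). It also held for 7 metallothionein and zinc export genes (-0.33), 20 replication-dependent histone genes (-0.29) and 21 genes of the TGF-beta pathway (-0.03). Aconitum alkaloids are known to act on voltage-gated sodium channels. In the study's own measurement of its extract, benzoylmesaconine and benzoylaconitine were found and aconitine was not detected. Of 28 genes of sodium and calcium channels and muscarinic receptors only 10 had enough counts to be tested, none a DEG (median -0.02). At the share of DEGs over all genes tested (0.786%), lists of this size would hold few or none, here and in the passages above. A list without a DEG is therefore near that share. Over all genes, 1858 had an unadjusted p-value under 0.05.

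Of the intestinal system network that the study assembled, 229 of 366 proteins had a tested gene and 8 (3.49%) were DEGs, against 0.786% of all genes tested. The 5 rises were PIGR, BIRC3, AKR1B10, HTR1D, a serotonin receptor (0.79 ± 0.11 on the log2 scale), and NR5A2, a nuclear receptor of the crypt (0.70 ± 0.19). The 3 falls were TFF3, NOX1 and HLA-DMB, which helps to load MHC class II molecules (-1.25 ± 0.36). The median log2 fold change of the network was -0.02.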

How the data were processed

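RNA-seq libraries were directional mRNA libraries read as 100 bp pairs. Per the submitters' processing notes the authors used FastQC 0.11.9, Trim Galore 0.6.5, STAR 2.7.3a and RSEM 1.3.3 on GRCh38 with annotation release 84 (the methods name other Trim Galore and STAR versions), and deposited RSEM expected counts for 60675 genes. The strand setting is not given in the sources used here. Of the deposited values 8.84% were not whole and were rounded. Gene positions and classes are from GENCODE 44 (GRCh38) and promoters from RefSeq (GRCh38.p14).

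The 12 HT29 libraries of batch B (vehicle and 3 doses) were fitted together with DESeq2 1.42.0 (R 4.3.3, default size factors and filtering, Wald test, two-sided), the test that the study used. A gene was called a DEG at a Benjamini-Hochberg adjusted p-value under 0.05 and over 1.5-fold. Tested on simulated data, 99.5% of 200 genes changed 2-fold were recovered in this comparison. The changed genes had a mean of 100 or more counts, with an assumed spread and no outlying library. That share therefore does not apply to genes of fewer counts, and may be lower in these data. For genes with a mean of 100 or more normalized counts the median standard error was 0.12 (log2). A count of 0 allows up to 3 counts, and this floor covers counting error only. Alternatives were edgeR 4.0.16 (quasi-likelihood), other size factors, filters and thresholds, a replicate block, batch A vehicles and leaving out each library. Named were the 12 protein-coding and 4 other DEGs of largest change in each direction with a mean of 50 or more counts and no overlap of groups, the AhR list, mitochondrial rRNAs, markers and up to 4 DEGs of each other list, and any other gene named was chosen after its values were seen. The members and lists were chosen with earlier results of these data known. The intestinal network list is the study's own. Replicates sharing a number were not correlated (Pearson r of deviations over 10927 genes -0.116, -0.0486 and -0.0982), so no pairing was assumed. Some genes that the naming rule covers are not reported here.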

Additional observations from a re-analysis of the deposited data

Results flagged for a closer look

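For 7 of the genes named above every medium-dose library moved one way against vehicle in HT29 and the opposite way in SW1783. The difference between the cell lines was not tested. The share of all genes that moved in opposite ways is not given here. In HT29 alone, 27.2% of all genes tested had the medium-dose libraries on one side of the vehicles. In SW1783 the log2 fold change at the medium dose was -0.7 for CYP1B1, whose normalized counts were 3333, 3311 and 3299 in vehicle and 2066, 2053 and 1984 at the medium dose, and -0.41 for TIPARP. It was -0.89 for CYP1A1 and -1.12 for ALDH3A1, both with at most 15.8 normalized counts in any of those libraries. AKR1B10 had -0.55 and RN7SL1 had -1.14 in SW1783. DKK1, which fell in HT29, had 0.32 in SW1783.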

How the results depend on the processing

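The 135 DEGs against vehicle became 102 with edgeR, 141 with only the 6 libraries, 146 with a low-count filter and 131 or 138 with other size factors. Without the fold threshold there were 336. Leaving out 1 of the 6 vehicle and medium-dose libraries gave 87 to 125, the lowest without medium-dose replicate 3, and leaving out high-dose replicate 2, which enters the shared fit, gave 185. The 65 falls became 43 with edgeR. Medium against low dose, 23 DEGs became 15 with edgeR, 64 without the fold threshold and 19 to 30 with 1 library of those doses left out. Medium against high dose, 103 became 251 without the fold threshold, 78 to 112 with 1 library of those doses left out and 11 with edgeR on only the 6 libraries, a setting added after seeing the data that gave 195 DEGs against vehicle. With the replicate number as a replicate block, the fit called 113 genes against vehicle, 31 against the low dose and 85 against the high dose, and the numbers did not pair the samples. No alternative reversed a result. The causes were not tested. Depth limits genes of few counts: 22 rises and 19 falls had a mean under 50.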
